A study of Mus musculus with 9 samples.

Results

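The data were RNA-seq counts from 6 of the 9 libraries of the study: the single cell clones 1, 2 and 4 of AML246, each sequenced untreated and again after 14 days of doxycycline (3 libraries per group). The libraries were chosen by their titles and joined in pairs by clone number. AML246 is a mouse acute myeloid leukaemia line of C57BL/6 background. All 6 libraries share its p53-/- genotype, its short hairpin RNA directed at PU.1, and culture with the cytokine IL3. Untreated cells were sorted as GFPhigh, with the hairpin being made, and doxycycline cells as GFPoff, with the hairpin shut off. Doxycycline, the sorting gate and the hairpin change together here and cannot be told apart. A further group of washed cells, grown 14 days with doxycycline and 14 days without it, is used only where it is named. The clones descend from 1 line, and the spread behind each p-value is that between its clones, not between leukaemias. The question was which genes differ within a clone once PU.1 is allowed to return, and the account below sets the best known neutrophil genes aside.

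PU.1, the protein of Spi1, is an ETS family transcription factor that binds purine-rich DNA around a GGAA core and is required for myeloid and B lymphoid development. Its dose matters: low amounts hold myeloid precursors in an immature state, and loss of function occurs in mouse leukaemia models. It is known for activating genes of myeloid surface receptors, of the kinases behind them and of adhesion, often together with C/EBP factors. In these cells the hairpin keeps PU.1 low until doxycycline stops it.

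Library totals ran from 7408118 to 9803258 counts. Levels are CPM, a gene's counts scaled to a common library total, after TMM scaling, and log2 fold changes, with their standard errors (SE), come from edgeR with the clone as a block; a gene is called at an adjusted p of 0.05. Untreated clone 1 stood apart: a single entry that has no symbol took 22% of its counts, against 0.153% to 1.64% in the other 5. Protein genes of the mitochondrial genome took 2.58% to 19.5% of counts. The pan-leukocyte markers were present in every library (summed 2400 to 2610 CPM untreated and 4050 to 5020 CPM in doxycycline), while the B cell markers summed to at most 6.86 CPM. In bulk RNA, fewer cells of a type and less RNA per cell cannot be told apart.

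Spi1 itself (chromosome 2, 91082374 to 91115759 on GRCm38) was counted at 47.1, 45.8 and 23.3 CPM in untreated clones 1, 2 and 4 and 192, 187 and 152 CPM in doxycycline. Every doxycycline library lay above every untreated one, and clone 4 started lowest (log2 change 2.25 ± 0.17 SE, adjusted p = 0.00077). Trp53, the gene for p53, was counted although the cells are p53-deficient, at 92.7, 77.9 and 60 CPM untreated and 26.5, 42.2 and 38.4 CPM in doxycycline (log2 change -1.11 ± 0.23 SE, adjusted p = 0.0146). Counts per gene do not show which exons were read, and this call was lost without clone 4 (adjusted p = 0.0504).

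Of 11671 tested genes, 1942 were higher in doxycycline (16.6% of those tested) and 1738 lower (14.9%). At least 4-fold changes numbered 223 upwards and 252 downwards, and at least 8-fold changes 107 and 110. Of the 3680 called genes, 3678 moved the same way in all 3 clones, and 3126 had groups that did not overlap, as did 39% of all tested genes. The median log2 fold change of all tested genes was -0.01, and higher genes made up 52.8% of the calls. Scaling by library size alone moved that median to 0.23, the calls to 1639 higher and 719 lower, and the share of higher calls to 69.5%, so each change is relative to the median gene. The count of calls rested on the block and on clone 4: 1168 genes were higher and 858 lower without the block, 520 and 390 without clone 4, and 1789 and 1546 without clone 1, whose untreated library stood apart.

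**Figure D1:**
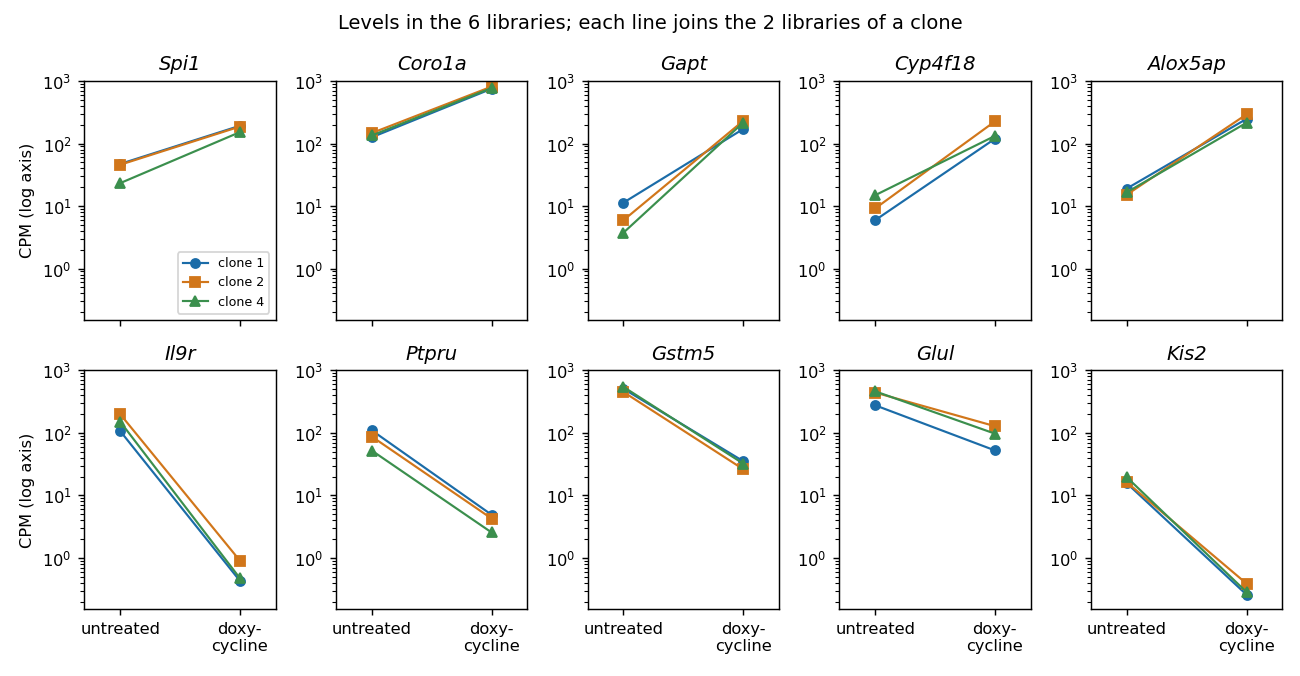
Levels of 10 genes in the 6 libraries, as CPM on a log axis with the same range in each panel; each line joins the untreated and the doxycycline library of a clone. In every panel the 3 untreated points and the 3 doxycycline points lie in separate ranges; levels are not comparable between genes, since CPM takes no account of gene length.

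A microRNA cluster on the X chromosome was nearly silent in doxycycline. Kis2 is the noncoding host transcript beside the hairpins of the miR-106a to miR-363 cluster, a relative of the miR-17 to miR-92 cluster. MicroRNAs repress messenger RNAs that match their seed, bases 2 to 8 from the 5′ end, which is in capitals in the mature sequences below (RefSeq, GRCm38.p6). The 6 main arms are shown because they fall into 4 seed groups, in which the first pair and the last pair are alike:
mmu-miR-106a-5p: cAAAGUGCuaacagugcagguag
mmu-miR-20b-5p: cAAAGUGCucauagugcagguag
mmu-miR-18b-5p: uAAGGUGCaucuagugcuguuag
mmu-miR-19b-3p: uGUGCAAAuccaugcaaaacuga
mmu-miR-92a-3p: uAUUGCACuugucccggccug
mmu-miR-363-3p: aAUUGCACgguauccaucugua

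Kis2 (X, 52742563 to 52744593) had 87, 131 and 161 raw counts in untreated clones 1, 2 and 4 and 3, 3 and 3 in doxycycline. Over the sums of 379 and 9 counts this was a level 57.5 times higher untreated (95% exact counting interval 30 to 127), and Kis2 fell (log2 change -5.75 ± 0.33 SE, adjusted p = 0.000362). In washed cells it had 13, 157 and 153 counts, which were in the untreated range in clones 2 and 4 and below it in clone 1. The hairpin entries of Mir363, Mir18b and Mir19b-2, which lie just outside Kis2, also fell. Kis2 and these entries passed the filter on low counts only through their untreated level. They had to differ, so their calls add no support. Mir363 had 29, 44 and 22 counts untreated and Mir18b had 19, 37 and 34, and all 3 entries had 0 in each doxycycline library. Against a floor of 3 counts per library, Mir363 was at least 14.3-fold lower, Mir18b at least 13-fold and Mir19b-2 at least 6.39-fold; the call of Mir19b-2 was lost without clone 4 (adjusted p = 0.0631). Mir92-2, Mir20b and Mir106a did not pass the filter on low counts, with 29, 47 and 23 counts over the untreated libraries and 1, 1 and 0 over the doxycycline ones. Reads on a hairpin come from the precursor RNA, so mature microRNAs were not measured.

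Promoters were read for the letters of the high-affinity PU.1 site. The 8 letters GAGGAAGT, on either strand, lay in 26 of 219 RefSeq promoters (11.9%; 250 bases before to 50 after the start) of genes at least 4-fold higher, in 2.49% of those at least 4-fold lower, in 3.22% of all tested genes and in 3.2% of all promoters in the table. The shorter GAGGAA, which the 8 letters contain, lay in 41.6%, 29%, 26.7% and 28.3%. By contrast CCGGAAGT, the letters of ETS factors at housekeeping promoters, lay in 0%, 1.24%, 8.63% and 3.89%. The C/EBP letters TTGCGCAA lay in 0.457%, 0%, 0.309% and 0.183%, the first being 1 of 219 promoters, so they did not set these genes apart. Of the 20 largest rises named by rule, 15 have a promoter in the table, and 3 of these hold the 8 letters: Gapt, Cyp2a4 and Cyp2a5. Gapt (13:110357123-110357422, minus strand) and Cyp2a5 (7:26835089-26835388, plus strand) are printed with the letters, here on the opposite strand as ACTTCCTC, in capitals. A match is a description of the letters and does not show binding.
Gapt: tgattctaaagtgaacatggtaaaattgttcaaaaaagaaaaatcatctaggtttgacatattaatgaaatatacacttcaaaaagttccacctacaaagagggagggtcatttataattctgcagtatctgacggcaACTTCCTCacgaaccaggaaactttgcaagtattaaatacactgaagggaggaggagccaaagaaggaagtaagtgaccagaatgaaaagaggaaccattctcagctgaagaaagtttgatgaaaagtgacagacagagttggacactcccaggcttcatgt
Cyp2a5: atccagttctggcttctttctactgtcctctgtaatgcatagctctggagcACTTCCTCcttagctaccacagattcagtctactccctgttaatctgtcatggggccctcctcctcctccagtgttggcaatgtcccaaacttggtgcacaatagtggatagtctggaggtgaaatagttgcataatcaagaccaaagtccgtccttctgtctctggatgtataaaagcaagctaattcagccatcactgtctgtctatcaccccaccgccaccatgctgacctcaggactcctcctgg

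The largest rises outside the best known neutrophil genes were in genes of varied function. Rflnb, a regulator of actin-binding filamin, was at 5.22, 4.7 and 7.39 CPM in untreated clones 1, 2 and 4 and 270.3, 196 and 206.5 CPM in doxycycline (log2 change 5.26 ± 0.21 SE, adjusted p = 0.000112). Gapt, a membrane adaptor that binds GRB2 in blood cells, was at 11.3, 5.94 and 3.755 CPM untreated and 171, 230.5 and 216.5 CPM in doxycycline (log2 change 4.97 ± 0.37 SE, adjusted p = 0.000739). The 3 doxycycline values of each lay far above the 3 untreated ones, and the clones differed more in Gapt before treatment than after it. Slc40a1, the iron exporter ferroportin, went from 4.9 ± 2.61 to 87.5 ± 55.8 CPM (means ± SD, n = 3 per group here and below). Lipg, the endothelial lipase, went from 17.6 ± 12.1 to 215 ± 40.6 CPM. Cyp4f18, a cytochrome P450 that inactivates leukotriene B4, went from 10 ± 4.54 to 159 ± 58.2 CPM. These 3 handle iron, lipoprotein lipids and a lipid mediator. Clec12a, an inhibitory lectin receptor, rose to 211, 39.7 and 55 CPM in clones 1, 2 and 4, from 7.74, 5.69 and 2.42 CPM untreated. Epcam, an epithelial adhesion molecule, rose to 15.5, 71.2 and 30.4 CPM in clones 1, 2 and 4, from 1.98, 4.33 and 1.94 CPM untreated. Nfam1, an ITAM-bearing receptor that activates NFAT, rose by 3.51 on the log2 scale, and Il1r2, the decoy receptor for interleukin 1, by 3.31. Also among the 20 largest were Cyp2a4 and Cyp2a5, and the stefin-like genes Cstdc4, Cstdc5 and Csta2, whose values are uncertain because near-identical copies can share reads. Every gene named among these largest rises kept their call without clone 4.

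Surface receptors that read antibodies, sialic acids and neighbouring cells were mostly higher. Of 33 tested members of the Fc, Siglec, Lilr, Pilr, CD300, SIRP and SLAM families, 22 were called higher and 0 lower, against 16.6% and 14.9% of all tested genes, with a median log2 fold change of 1.74 (13 higher and 1 lower without clone 4). The files list 73 such genes. Those that passed the filter on low counts only because they are high in doxycycline had to differ. The same limit holds for the lists and runs of neighbours below, and for genes that passed only because they are high untreated. Cd300lf, a lipid-sensing inhibitory receptor, was at 0.18, 0.495 and 0.121 CPM in untreated clones 1, 2 and 4 and 36.05, 49.7 and 53.95 CPM in doxycycline, close to 0 before and present in every clone after (log2 change 7.38 ± 0.33 SE, adjusted p = 0.000161). Siglecf, a sialic acid receptor known from eosinophils, went from 0.705 ± 0.4835 to 26.8 ± 18.1 CPM. Sirpa, which binds CD47 and restrains phagocytosis, went from 122 ± 9.43 to 419.8 ± 64.2 CPM. Fcgr2b, the inhibitory IgG receptor, went from 107 ± 25.7 to 414 ± 24.6 CPM. An activating member, Fcgr1, the high-affinity IgG receptor, went from 0.124 ± 0.214 to 7.29 ± 3.115 CPM. Trem1 and Trem3, which are outside these families, were also called higher. Fcgr1, Trem1 and Trem3 passed the filter only through their doxycycline level and had to differ. Of 27 tested TNF ligands and receptors 11 rose and 3 fell (4 and 1 without clone 4). Tnfrsf1a, the main TNF receptor, went from 36.8 ± 9.28 to 97.4 ± 44.85 CPM. Its chromosomal neighbour Ltbr, the lymphotoxin receptor, went from 18.5 ± 5.72 to 47 ± 11.8 CPM. The costimulatory receptor Tnfrsf9 went the other way, from 171 ± 54.9 to 12.3 ± 11 CPM.

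Cytokine receptors split. Of 34 tested interleukin and colony stimulating factor receptor genes, 12 were higher and 5 lower (5 and 3 without clone 4), with a median of 0.18. Crlf2, the TSLP receptor chain, rose from 138 ± 17.4 to 374.5 ± 51.4 CPM. The alpha chain for GM-CSF, Csf2ra, rose from 17 ± 2.76 to 42.1 ± 7.27 CPM. Il1rap, the shared chain of interleukin 1 family receptors, rose from 15.6 ± 4.39 to 44.2 ± 5.51 CPM. Il9r, the receptor of interleukin 9, showed the largest fall of all by the naming rule. It was at 107, 199 and 151.5 CPM in untreated clones 1, 2 and 4 and 0.43, 0.906 and 0.473 CPM in doxycycline (log2 change -7.97 ± 0.19 SE, adjusted p = 3.82e-05). No doxycycline library reached 1 CPM, so Il9r passed the filter on low counts only through its untreated level and had to differ. The type 2 cytokine Il13 went the same way with a wider spread, at 38.3, 50 and 17.8 CPM untreated and 0.086, 12.7 and 4.26 CPM in doxycycline (log2 change -3.01 ± 0.82 SE, adjusted p = 0.0341); it was not called without the block (adjusted p = 0.0972), without clone 2 (adjusted p = 0.0565) or without clone 4 (adjusted p = 0.112). Downstream of such receptors, 7 of 23 JAK, STAT and SOCS genes were higher and 0 lower (3 and 0 without clone 4). Jak1, a kinase of many cytokine receptors, rose from 150.1 ± 12.6 to 372 ± 32 CPM. The transcription factor Stat3, which such kinases activate, rose from 96.4 ± 7.59 to 223.5 ± 12.4 CPM.

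Kinases, phosphatases and adaptors close to the membrane also changed. Of 27 tested myeloid signalling adaptors 15 were higher and 1 lower, with a median of 0.60 (10 and 1 without clone 4). Pik3ap1, which links receptors to PI3 kinase, rose from 52.25 ± 8.73 to 152.5 ± 27.5 CPM. Pstpip2, an F-BAR protein that restrains macrophage activation, rose from 26.4 ± 3.53 to 132 ± 21.8 CPM, and its relative Pstpip1 rose as well. Of 20 tested Src, Syk, Tec and FES kinases 6 were higher and 2 lower. Syk, the kinase that reads ITAM receptors, rose from 46 ± 9.94 to 142 ± 17.8 CPM. Lyn, a Src family kinase of blood cells, rose from 36.2 ± 4.56 to 77.3 ± 9.475 CPM. Src itself fell, at 8.1, 20 and 17.4 CPM in untreated clones 1, 2 and 4 and 0.516, 3.36 and 0.852 CPM in doxycycline (log2 change -3.47 ± 0.40 SE, adjusted p = 0.00237), so Lyn and Src moved in opposite directions. Of 28 tested protein tyrosine phosphatases 10 were higher and 4 lower (5 and 3 without clone 4). Ptprc, the leukocyte antigen CD45, rose from 1.52 ± 0.511 to 37.5 ± 8.94 CPM. The receptor phosphatase Ptpru fell from 83 ± 29 to 3.91 ± 1.215 CPM. Among 41 phosphoinositide kinases and phospholipases C and D, 14 rose and 7 fell (9 and 3 without clone 4). The PI3 kinase catalytic subunits Pik3cb and Pik3cg rose from 45.3 ± 10.6 to 167 ± 34.4 CPM and from 23.3 ± 3.69 to 129 ± 20.3 CPM. By contrast Pik3ip1, a membrane inhibitor of PI3 kinase, fell from 131 ± 38.6 to 21.9 ± 7.32 CPM.

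**Figure D2:**
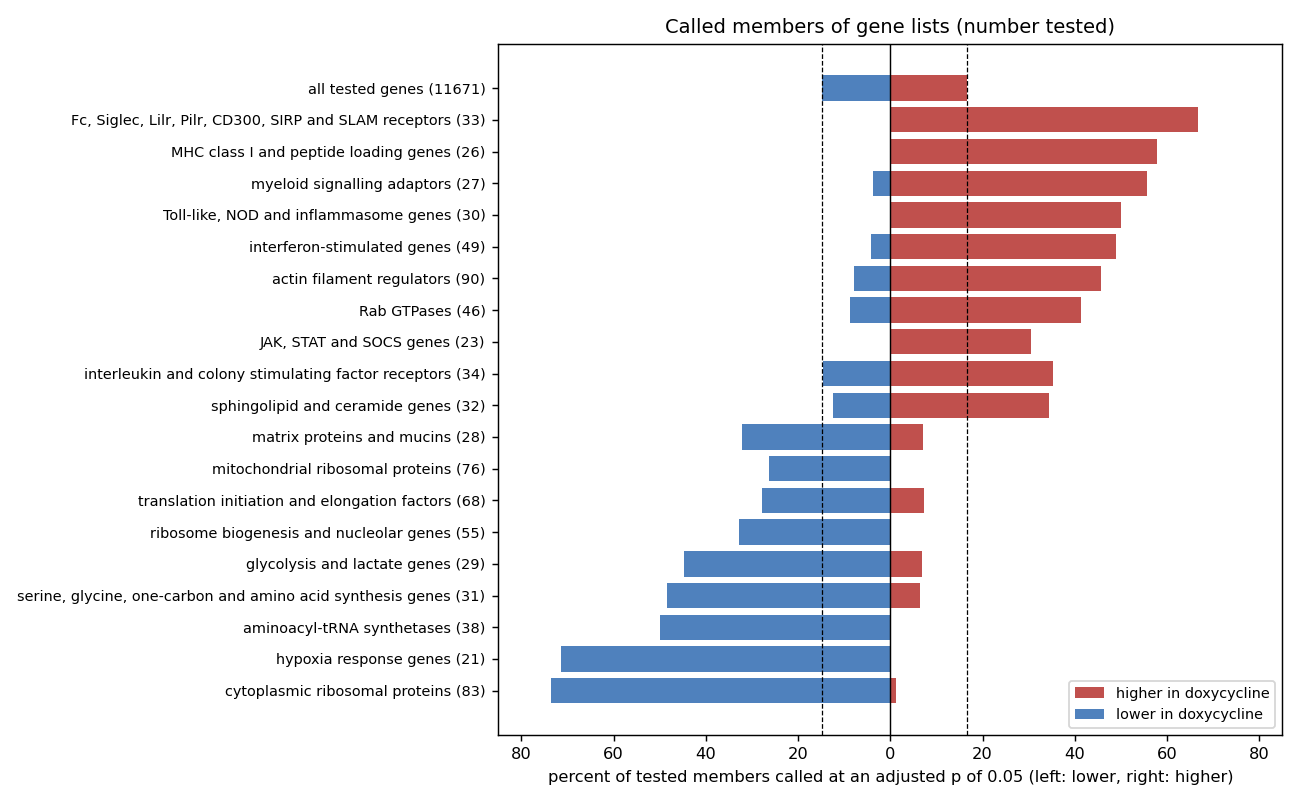
Percent of the tested members of 19 gene lists called higher (right) or lower (left) in doxycycline, with the number tested in brackets; dashed lines mark the shares over all tested genes. Receptor, adaptor, antigen presentation and innate lists lie to the right and hypoxia, synthetase and ribosomal lists to the left.

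Among genes of cell shape and membrane traffic, calls were more often higher than lower. Of 90 tested actin filament regulators 41 were higher and 7 lower (11 and 2 without clone 4). Coro1a, an actin-binding coronin of leukocytes, was at 126, 147 and 135 CPM in untreated clones 1, 2 and 4 and 752, 813 and 773 CPM in doxycycline, with no overlap. The class I myosin gene Myo1f rose from 70.3 ± 11.9 to 223 ± 59.4 CPM. Cttn, cortactin, which steadies branched actin, fell, at 59.2, 73.85 and 72.1 CPM untreated and 3.61, 10.5 and 5.87 CPM in doxycycline (log2 change -3.46 ± 0.25 SE, adjusted p = 0.000731). Of 40 integrin genes and activators 18 rose and 10 fell (9 and 2 without clone 4). Itgal, the alpha chain of LFA-1, rose from 126 ± 12.6 to 449 ± 30.2 CPM, and Itgav, the vitronectin receptor chain, from 14.7 ± 0.534 to 43.6 ± 4.24 CPM. Tubulins, kinesins and dyneins gave 11 higher and 6 lower of 68 (1 and 2 without clone 4), near the share of all tested genes called higher and below that called lower. Of 46 Rab GTPases, switches of vesicle traffic, 19 rose and 4 fell (5 and 1 without clone 4). Rab32, of lysosome-related organelles, rose from 18.5 ± 5.2 to 69.6 ± 20.6 CPM, and Rab5b, of early endosomes, from 81.8 ± 2.605 to 182 ± 8 CPM. Sorting nexins, clathrin adaptors and ESCRT genes gave 26 higher and 4 lower of 107 (4 and 0 without clone 4). Lysosomal genes gave 20 and 9 of 63 (7 and 2 without clone 4), with the mannosidase Man2b1 higher, from 419 ± 54.3 to 1347 ± 392.5 CPM.

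Sensors of microbes, interferon-stimulated genes and MHC class I genes were called higher more often than lower, with medians below that of the Fc and Siglec receptor list. Of 30 tested Toll-like, NOD and inflammasome genes 15 were higher and 0 lower, with a median of 0.66 (7 and 0 without clone 4). Nod1, a cytoplasmic sensor of bacterial cell wall, was at 7.92, 8.66 and 6.66 CPM in untreated clones 1, 2 and 4 and 29.85, 28.5 and 25 CPM in doxycycline and Myd88, the adaptor of most Toll-like receptors, at 18.35, 17.6 and 17.6 CPM untreated and 40.6, 39.7 and 46.1 CPM in doxycycline; in both the clones were close together. Of 49 interferon-stimulated genes 24 rose and 2 fell (6 and 0 without clone 4). Ifi27l2a rose from 4.47 ± 1.48 to 46.8 ± 32 CPM. Trim25, a ubiquitin ligase of the RIG-I pathway, rose from 52.1 ± 2.32 to 137 ± 36.4 CPM. Of 26 MHC class I and peptide loading genes 15 were higher and 0 lower, with a median of only 0.52 and clone medians of 0.61, 0.50 and 0.45 (2 and 0 without clone 4). Nlrc5, the transactivator of these genes, rose from 17.7 ± 3.04 to 42.8 ± 3.87 CPM. H2-T22 and H2-Q4 rose by 0.89 and 0.54, and were not called without clone 4 (adjusted p = 0.0599 and 0.126), nor was H2-Q4 with scaling by library size alone (adjusted p = 0.0734); class I genes are near-identical, so reads may be shared among them. In contrast H2-Ab1, a class II chain, fell, at 160.5, 175 and 99.3 CPM untreated and 25.4, 113 and 54.3 CPM in doxycycline, a call lost without the block (adjusted p = 0.132) and without clone 4 (adjusted p = 0.111), while its partner H2-Aa stayed under 2 CPM in every library.

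Enzymes that make lipid mediators changed in both directions. Of 25 tested eicosanoid enzymes 9 were higher and 6 lower, with a median of 0.02 (9 and 3 without clone 1, and 5 and 2 without clone 4). Alox5ap, which hands arachidonate to 5-lipoxygenase, was at 19.1, 15.2 and 16.6 CPM in untreated clones 1, 2 and 4 and 248, 293 and 215 CPM in doxycycline (log2 change 3.89 ± 0.17 SE, adjusted p = 0.000161). Alox15, a 15-lipoxygenase, was at 14.75, 23.1 and 12.5 CPM untreated and 174, 1001 and 537 CPM in doxycycline, lowest in clone 1. Ptgs1, a cyclooxygenase, rose from 17.7 ± 5.275 to 119.5 ± 66.1 CPM, and Mgst1, a microsomal glutathione transferase, from 40.1 ± 5.71 to 144 ± 19 CPM. The phospholipase Pla2g4a, which frees arachidonate, fell from 187 ± 44.9 to 99.8 ± 21.1 CPM; it was not called without clone 4 (adjusted p = 0.0711) or with scaling by library size alone (adjusted p = 0.137). Ptgds, prostaglandin D synthase, fell from 1050 ± 204.5 to 39.4 ± 23.3 CPM. Among 32 sphingolipid genes 11 rose and 4 fell (5 and 3 without clone 4). Asah1, acid ceramidase, rose from 96 ± 8.03 to 244 ± 8.74 CPM, and Sgpl1, which cleaves sphingosine 1-phosphate, from 114 ± 20.7 to 296 ± 35.2 CPM. By contrast acid sphingomyelinase, Smpd1, fell from 164 ± 57.55 to 54.8 ± 31.1 CPM.

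Other large falls were in single genes of varied function. Gstm5, a glutathione transferase, was at 507, 451 and 544 CPM in untreated clones 1, 2 and 4 and 35.3, 26.3 and 32.3 CPM in doxycycline (log2 change -4.01 ± 0.14 SE, adjusted p = 0.000109), with the clones close together in both groups. Its list of glutathione transferases, cytochromes P450 and aldehyde dehydrogenases gave 10 higher and 14 lower of 51 (4 and 5 without clone 4). Matn1, a matrix protein of cartilage, fell from 84.6 ± 20.4 to 1.45 ± 1.12 CPM. Muc13, a membrane mucin, fell from 48.5 ± 5.065 to 1.43 ± 0.744 CPM. Igfbp4, a secreted binder of insulin-like growth factors, fell from 220.2 ± 97.7 to 17.9 ± 3.175 CPM. The netrin receptor Unc5a fell from 37.5 ± 14.2 to 1.79 ± 0.808 CPM. Enpp1, an ectoenzyme that cleaves extracellular ATP, fell from 51.6 ± 12.2 to 3.225 ± 1.68 CPM. Taf4b, a subunit of the general factor TFIID, fell from 48 ± 10.7 to 5.76 ± 3.52 CPM. Of 28 tested matrix proteins and mucins 2 rose and 9 fell (2 and 5 without clone 4); one of the 2 was the matrix protein Thbs1, from 947 ± 327 to 3466 ± 341 CPM.

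Most genes of the hypoxia response, and a smaller share of those of glycolysis, were lower, with clone medians lowest in clone 1. Of 21 tested hypoxia response genes 15 were lower and 0 higher, with a median of -1.47 and clone medians of -2.47, -0.96 and -0.91 for clones 1, 2 and 4. Egln1, the oxygen-sensing hydroxylase, was at 358, 429.9 and 90.4 CPM in untreated clones 1, 2 and 4 and 54.1, 112 and 47.9 CPM in doxycycline (log2 change -1.87 ± 0.33 SE, adjusted p = 0.00837). Untreated clone 4 was already low, within the range of the doxycycline libraries, so the groups overlapped. Ankrd37 was at 39.8, 41.2 and 11.75 CPM untreated and 1.2, 7.89 and 0.852 CPM in doxycycline (log2 change -3.55 ± 0.49 SE, adjusted p = 0.00392), also lowest at the start in clone 4. Of 29 tested glycolysis and lactate genes 2 were higher and 13 lower. Eno1, the main enolase, was at 903, 1109 and 511 CPM untreated and 232, 455 and 251 CPM in doxycycline, and Pgk1, phosphoglycerate kinase, at 216, 246 and 128 CPM untreated and 34.4, 101 and 53.5 CPM in doxycycline; both fell in each clone. Hk3, the hexokinase of myeloid cells, rose from 17.8 ± 7.15 to 75 ± 13.9 CPM. Hif1a, the transcription factor that drives the hypoxia response, is regulated mainly at the protein level; its RNA rose from 151 ± 13.3 to 309.9 ± 8.385 CPM. These counts depended on the pairing: without the block 3 hypoxia and 3 glycolysis genes were lower, and without clone 4 they were 7 and 4.

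Genes of amino acid synthesis included more falls than rises. Of 31 tested serine, glycine, one-carbon and amino acid synthesis genes 15 were lower and 2 higher (11 and 0 without clone 4). Glul, glutamine synthetase, was at 276, 442 and 462 CPM in untreated clones 1, 2 and 4 and 52.5, 128 and 97.3 CPM in doxycycline (log2 change -2.14 ± 0.16 SE, adjusted p = 0.000739). Gpt2, a mitochondrial alanine transaminase, fell from 49.8 ± 26.1 to 8.675 ± 2.84 CPM. Atf5 and Ddit3, transcription factors of the amino acid stress response, fell from 53.3 ± 10.7 to 18.9 ± 2.93 CPM and from 68.9 ± 15.5 to 24.9 ± 6.47 CPM. Carriers went both ways: of 187 tested solute carriers 45 were higher and 36 lower (15 and 11 without clone 4). Slc1a4, a carrier of serine and alanine, fell from 24.4 ± 6.64 to 2.79 ± 1.21 CPM, and Slc19a1, the folate carrier, from 42 ± 7.74 to 7.86 ± 2.61 CPM. The amino acid carriers Slc7a11, of cystine, and Slc43a2, of large neutral amino acids, rose from 6.79 ± 2.54 to 42.1 ± 14.6 CPM and from 30 ± 4.77 to 71.7 ± 3.96 CPM. These 2 were chosen after their values were seen, and Slc7a11 was not called without clone 4 (adjusted p = 0.0501). Of 38 tested aminoacyl-tRNA synthetases, which charge transfer RNAs, 19 were lower and 0 higher, with clone medians of -0.41, -0.70 and -0.40. Iars, for isoleucine, fell from 134 ± 18.3 to 53.1 ± 14.2 CPM and kept its call without clone 4. The synthetase count fell to 8 without the block, to 2 without clone 4 and to 2 with scaling by library size alone.

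Most ribosomal protein genes were lower. Of 83 tested, 61 were lower and 1, Rpl15, was higher, a call lost without clone 4 (adjusted p = 0.124); the median was -0.78, with clone medians of -0.86, -0.78 and -0.67. Rps24 was at 305, 302 and 248 CPM in untreated clones 1, 2 and 4 and 138, 124 and 134 CPM in doxycycline (log2 change -1.11 ± 0.13 SE, adjusted p = 0.00265). The count was 12 without clone 4, 48 without the block and 10 with scaling by library size alone, under which the median stayed below 0, at -0.54. Processed pseudogenes may share their reads. Short genes as a class moved the same way: of the 1168 shortest tested genes (median 734 bases) 24.2% were lower and 7.36% higher, against 10.9% and 25.3% of the 1167 longest (median 7494 bases); the part of length in the ribosomal result was not tested. Of 55 ribosome biogenesis genes 18 were lower and 0 higher (3 and 0 without clone 4). Without the block 2 were lower, and with scaling by library size alone 2 were lower, with a median of -0.11. In this list Noc2l, a pre-ribosome factor, fell from 193 ± 33.1 to 89.4 ± 22.2 CPM. Mitochondrial ribosomal proteins gave 20 lower and 0 higher of 76 (5 and 0 without the block), and 0 calls without clone 4 or with scaling by library size alone. Of 68 translation factors 19 were lower and 5 higher (4 and 0 without clone 4), with Eef1g lower, from 161.5 ± 10.3 to 63.3 ± 8.7 CPM; their median of -0.22 turned to 0.02 with scaling by library size alone.

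**Figure D3:**
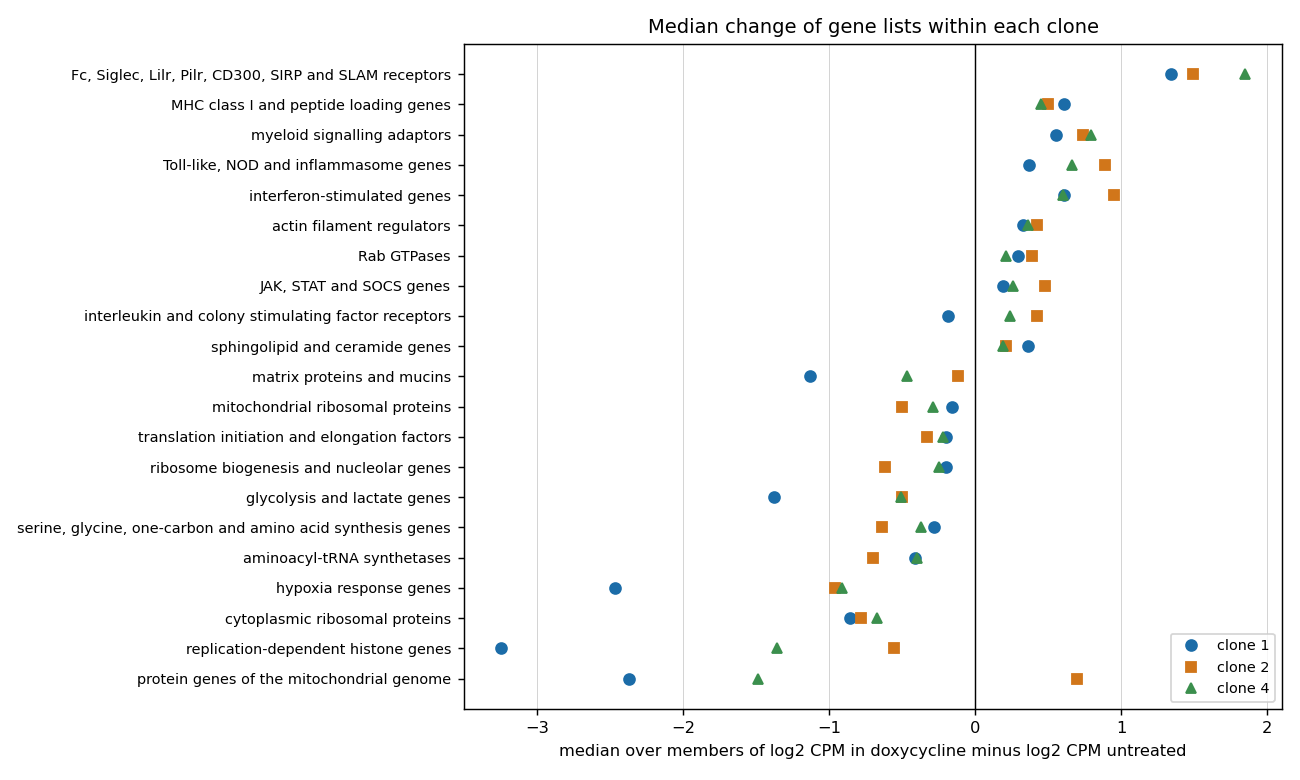
Median over the members of each list of the change within a clone, log2 CPM in doxycycline minus log2 CPM untreated; each symbol is a clone. For hypoxia, glycolysis and histone genes clone 1 lies furthest below 0, and for the protein genes of the mitochondrial genome clone 2 lies above 0 while clones 1 and 4 lie below.

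Lists set up after the data were seen covered histone, mitochondrial and other RNAs that differ in their tails. Of 25 tested replication-dependent histone genes, whose messages end without a poly(A) tail, 9 were lower and 0 higher, with clone medians of -3.25, -0.56 and -1.36. H1f2, a linker histone, was at 94.8, 109.6 and 45.4 CPM in untreated clones 1, 2 and 4 and 10.5, 38.7 and 9.09 CPM in doxycycline (log2 change -2.31 ± 0.31 SE, adjusted p = 0.00353). Other RNAs, listed as lacking a long poly(A) tail, moved in the same order of clones: 7 tested gave 0 higher and 2 lower, with clone medians of -6.41, 0.32 and -1.65. The 2 lower ones were the mitochondrial ribosomal RNAs, mt-Rnr1 at 6923, 4039 and 2364 CPM untreated and 69.5, 958 and 296 CPM in doxycycline and mt-Rnr2 at 15680, 14060 and 6434 CPM untreated and 565, 5609 and 1421 CPM in doxycycline. Neither was called without clone 4 (adjusted p = 0.108 and 0.129), and mt-Rnr2 was not called without the block (adjusted p = 0.0896). The part of RNA capture in the histone result was not tested. Protein genes of the mitochondrial genome gave 0 calls of 13, with clone medians of -2.37, 0.70 and -1.49.

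Transcription factors other than Spi1 changed in several families. Of 15 tested ETS factors, the family of PU.1 itself, 5 were higher and 1 lower (2 and 0 without clone 4). Ets1, known from lymphocytes, rose from 76.2 ± 9.07 to 160.4 ± 40.35 CPM, and Elk3, a serum response partner, from 82.6 ± 9.7 to 143 ± 10.45 CPM. Among 7 C/EBP factors, Cebpe, of late granulocyte development, rose from 252 ± 59.9 to 444 ± 75.6 CPM (not called without clone 4, adjusted p = 0.0846). Gata2, a factor of progenitors and mast cells, fell, at 881, 1639 and 1378 CPM in untreated clones 1, 2 and 4 and 232, 1141 and 492 CPM in doxycycline (log2 change -1.31 ± 0.28 SE, adjusted p = 0.0153); clone 2 kept most of its level, the groups overlapped, and the call was lost without the block (adjusted p = 0.2) and without clone 4 (adjusted p = 0.126). Mxd1, the MYC antagonist, rose from 38.9 ± 5.61 to 145 ± 47.1 CPM, and Myc itself fell by a little (log2 change -0.72 ± 0.22 SE, adjusted p = 0.0489). The Myc call was lost without the block (adjusted p = 0.243), without clone 2 (adjusted p = 0.11), without clone 4 (adjusted p = 0.163) and with scaling by library size alone (adjusted p = 0.334). Rxra, partner of many nuclear receptors, rose from 15.9 ± 6.56 to 56.6 ± 25.1 CPM. The NF-kappaB subunit Rel rose from 2.995 ± 0.451 to 13.7 ± 1.465 CPM. Atf3, an early stress factor, rose from 1.76 ± 1.39 to 16.7 ± 7.99 CPM. The receptor Notch1 rose from 55.1 ± 5.31 to 134 ± 25.3 CPM, while Hes1, a repressor downstream of Notch, fell from 12.9 ± 1.85 to 2.06 ± 1.69 CPM (not called without clone 4, adjusted p = 0.0501). Chromatin regulators were called in both directions. Of 50 lysine methyltransferases and demethylases 4 rose and 4 fell, and of 31 deacetylases and acetyltransferases 4 rose and 2 fell (0 and 0, and 0 and 1, without clone 4). Both lists lay below the shares over all tested genes, which were 16.6% higher and 14.9% lower. Among the deacetylases Hdac10 was lower, from 13.8 ± 3.15 to 2.66 ± 0.427 CPM. Chromatin remodellers gave 6 higher and 2 lower of 36 (0 and 0 without clone 4), near the first of those shares and below the second. Of 19 DNA methylation genes 3 were higher and 5 lower (0 and 1 without clone 4). Tet1, which oxidises methylcytosine, fell from 9.23 ± 1.36 to 1.17 ± 1.02 CPM (not called without clone 4, adjusted p = 0.0881) and Tet3, its relative, rose by 0.72 (adjusted p = 0.0902 without clone 4).

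Cell cycle genes did not share a direction in all clones. Of 46 tested DNA replication and repair genes 6 rose and 1 fell (3 and 4 without clone 1, and 1 and 1 without clone 4), with clone medians of 0.57, -0.29 and 0.11, and of 46 mitosis genes 9 rose and 1 fell (2 and 1 without clone 1, 22 and 0 without clone 2, and 0 and 0 without clone 4), with clone medians of 0.51, -0.16 and 0.54. Mcm3, of the replicative helicase, was at 109, 73.35 and 124 CPM in untreated clones 1, 2 and 4 and 325, 124 and 294 CPM in doxycycline, with the smallest rise in clone 2 (not called without clone 4, adjusted p = 0.0612). Of 33 G1 cyclin, inhibitor and pocket protein genes 10 rose and 4 fell (7 and 1 without clone 4). The antiproliferative genes Btg2 and Tob2 rose from 47.9 ± 11.2 to 136 ± 57.7 CPM and from 55.7 ± 0.978 to 120.3 ± 8.955 CPM. E2f8, an atypical E2F repressor, rose from 33.6 ± 7.9 to 96.1 ± 42.5 CPM.

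The marker lists held genes of several myeloid lineages before and after treatment. Of 36 tested best known neutrophil genes 27 rose and 5 fell, the 5 being Mpo, Elane, Prtn3, Ctsg and Chil3. Stfa2 was at 0, 0.124 and 0 CPM untreated and 3.96, 3.49 and 3.6 CPM in doxycycline. It passed the filter on low counts only through its doxycycline level and had to differ. The same holds for Ccl6, Fcgr4, Ly6g and Retnlg, while Chil3 passed only through its untreated level and also had to differ. The summed level of the list went from 2410 to 3230 CPM untreated to 7660 to 10400 CPM in doxycycline. Some members were nearly absent. Ncf1, Ncf4 and Cyba, subunits of the NADPH oxidase, rose. Cybb, its catalytic subunit, was counted at 8.10, 2.97 and 0.969 CPM untreated and 0.860, 0.647 and 0.852 CPM in doxycycline and did not pass the filter on low counts. The formyl peptide receptors Fpr1 and Fpr2 had at most 1 count in any library, and Mmp9 at most 3. Of the 8 tested eosinophil markers 3 rose and 1 fell (5 and 2 without clone 1). Among the rises, Il5ra and Siglecf passed that filter only through their doxycycline level and had to differ. Epx, eosinophil peroxidase, was at 10700, 7741 and 7290 CPM in untreated clones 1, 2 and 4 and 4664, 2826 and 2592 CPM in doxycycline (log2 change -1.38 ± 0.23 SE, adjusted p = 0.00699), a fall from a high level that was not called without clone 4 (adjusted p = 0.105); the list summed to 8250 to 12200 CPM untreated and 3870 to 4990 CPM in doxycycline. Of the 6 tested megakaryocyte and platelet markers 5 rose and 0 fell, with a median of 1.92 (4 and 0 without clone 4). Among the 5, Gp9 was at 0, 0.618 and 0 CPM untreated and 3.1, 2.46 and 2.56 CPM in doxycycline. It passed the filter on low counts only through its doxycycline level and had to differ. The list summed to 870 to 1620 CPM untreated and 3970 to 4330 CPM in doxycycline. Most of that sum was Thbs1, also in the matrix list. Itga2b, the platelet integrin chain CD41, was at 239.5, 177 and 82 CPM untreated and 486, 651.5 and 447 CPM in doxycycline (log2 change 1.78 ± 0.27 SE, adjusted p = 0.00526), and its partner Itgb3 rose from 34.9 ± 10.4 to 129.9 ± 27.9 CPM. The platelet genes Gp6, Pf4 and Treml1 were at 0 throughout. The mast cell and basophil list summed to 2750 to 3560 and 710 to 2690 CPM, with Fcer1a, Mcpt1, Mcpt4 and Mrgprb2 at 0 in all 6 libraries. Of its 8 tested members 1 rose and 3 fell (1 and 1 without clone 4). Cpa3 and Gata2 fell, as did Tph1, of serotonin synthesis, from 46.85 ± 20.8 to 0.204 ± 0.09455 CPM. Tph1 passed the filter only through its untreated level and had to differ. Kit rose from 72.6 ± 17.5 to 210.2 ± 67.05 CPM. Of 8 tested monocyte and macrophage markers 2 rose and 2 fell (5 and 1 without clone 1), the list's range was 1770 to 2280 and 1190 to 5280 CPM, and most of it was Ly6c2, at 2176, 2081 and 1672 CPM untreated and 1131, 5019 and 2438 CPM in doxycycline, which was not called. In this list Fcgr1, which rose, passed the filter only through its doxycycline level, and Cx3cr1, which fell, only through its untreated level. Both had to differ. The macrophage genes C1qa, C1qc, Marco, Mertk and Ms4a7 were at 0 throughout. The part of cell mixture in the gene groups above was not tested.

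Changes in the 3 clones correlated across genes to different degrees. Over the 11671 tested genes the change in clone 1 correlated with that in clone 2 at a Pearson r of 0.652 and with clone 4 at 0.778, and clones 2 and 4 at 0.804; genes are not independent replicates, and these are descriptions. The narrowest ranges over the 3 clones among called genes included Morf4l2, a chromatin protein, at 128, 117 and 125.5 CPM in untreated clones 1, 2 and 4 and 74.7, 68.3 and 73.3 CPM in doxycycline, and Rps6ka1, a MAP kinase target, at 199, 223 and 204 CPM untreated and 374, 411 and 379 CPM in doxycycline. In each of these the untreated and doxycycline values formed 2 tight sets (neither was called without clone 4, adjusted p = 0.0613 and 0.0631). Among the widest were Ahnak, a giant scaffold protein, at 42.5, 81 and 67.1 CPM untreated and 3.61, 47.7 and 27.3 CPM in doxycycline. Stc2, a secreted glycoprotein, was at 151.5, 169 and 73.5 CPM untreated and 6.37, 42.7 and 20.8 CPM in doxycycline. Cpa3, a mast cell protease, was at 1600, 1575 and 1276 CPM untreated and 145, 1062 and 494 CPM in doxycycline. In all 3 clone 1 fell the furthest, and none was called without clone 4 (adjusted p = 0.128, 0.0504 and 0.161). Ahnak and Cpa3 were not called without the block either (adjusted p = 0.246 and 0.144), nor was Cpa3 by DESeq2 (adjusted p = 0.0633). Lipg differed the other way, with the smallest rise in clone 1.

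Called genes also lay side by side. Runs of at least 3 neighbouring tested genes, all called in 1 direction, numbered 121 (69 higher and 52 lower) and held 404 of the 3648 called genes with coordinates. With 16.6% of all tested genes higher and 14.9% lower, such runs also occur through the call rate alone. How many would do so was not worked out, so the count does not show that called genes cluster. The longest, 9 genes on chromosome 17 (47737037 to 48409820), ran from Tfeb to Nfya and held the receptor genes Trem1, Trem3 and Treml2, all higher, with a median log2 fold change of 2.95. Trem1, which amplifies inflammatory signals, was at 0, 0.742 and 1.09 CPM in untreated clones 1, 2 and 4 and 45.3, 14.1 and 22.6 CPM in doxycycline, and Treml2 at 197, 190.4 and 156.5 CPM untreated and 253, 339 and 345 CPM in doxycycline. The ends of the run moved less, Tfeb by 0.94 and Nfya by 0.63, and neither end nor Treml2 was called without clone 4 (adjusted p = 0.0924, 0.0776 and 0.16). The next longest held 6 stefin-like genes on chromosome 16, and 1 of the runs of 5 held the class I genes H2-D1, H2-Q1, H2-Q4, H2-Q6 and H2-Q7, none of which was called without clone 4. Without the block H2-D1 (adjusted p = 0.0617), H2-Q1 (adjusted p = 0.0859) and Nfya (adjusted p = 0.0901) lost their calls too. Fbxl5, Bst1, Cd38 and Prom1 were all higher on chromosome 5, although Fbxl5 and Prom1 were not called without clone 4 (adjusted p = 0.105 and 0.214). Prom1 was also not called without the block (adjusted p = 0.157), without clone 1 (adjusted p = 0.177) or with all 9 libraries (adjusted p = 0.127). Bst1, an ectoenzyme that consumes NAD, was at 0.18, 0 and 0 CPM untreated and 5.25, 1.94 and 5.11 CPM in doxycycline. Its relative Cd38 was at 1.62, 0 and 0.606 CPM untreated and 15.9, 2.2 and 11.45 CPM in doxycycline. Trem1, Trem3, Bst1 and Cd38 passed the filter on low counts only through their doxycycline level and had to differ. Their place in these runs, and their part in the run medians, therefore adds no support. On the falling side Il9r stood beside Snrnp25, Rhbdf1 and Mpg on chromosome 11, with a median of -2.74; Mpg was not called without clone 4 (adjusted p = 0.0716). Overlapping neighbours may share reads, since the strand setting of the counting is not given in the sources used here.

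Chromosome 3, which was looked at after the data were seen, was lower as a whole. Of its tested genes 26.9% were lower and 8.4% higher, against 10.9% to 17.2% and 14.4% to 21.8% on the other 19 chromosomes. Over its 411 well-counted genes (mean log2 CPM 3 or more) the median log2 fold change was -0.27, and -0.24, -0.20 and -0.30 within clones 1, 2 and 4; the medians of other chromosomes lay between -0.02 and 0.09. The shift was spread over genes rather than set by a few: 70.8% of these genes lay below 0, against 41.6% to 51.6% elsewhere, and the 358 that changed by less than 2-fold had a median of -0.22, against 0.03 for 7677 such genes elsewhere. All 4 windows of 40 Mb lay below 0 in each clone, with medians from -0.48 to -0.12. Without ribosomal protein genes the median was -0.26. By library, the median of chromosome 3 minus that of other chromosomes, centred on all libraries, was 0.15, 0.04 and 0.23 untreated, -0.19, -0.22 and -0.09 in doxycycline, and -0.09, -0.04 and 0.21 in washed cells, so after washout clone 4 was back in the untreated range and clones 1 and 2 lay between their own doxycycline and untreated values. DNA copy number was not measured in these libraries, and its part in the result was not tested.

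**Figure D4:**
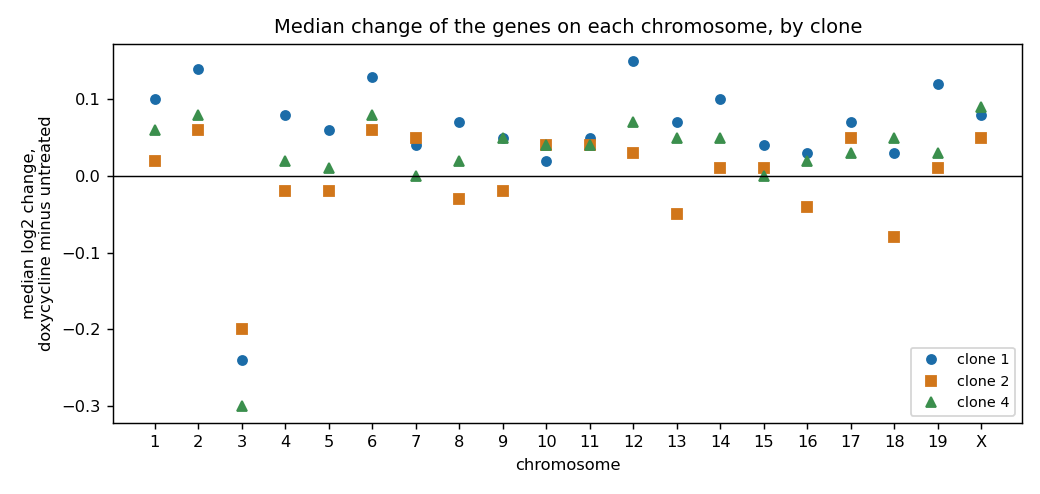
Median log2 change, doxycycline minus untreated, of the well-counted genes (mean log2 CPM 3 or more) on each chromosome; each symbol is a clone. Chromosome 3 lies at -0.24, -0.20 and -0.30 in clones 1, 2 and 4, and none of the 19 other chromosomes lies below -0.08 in any clone.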

How the data were processed

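The files hold raw counts per Entrez gene (27179 entries), deposited by the authors; the submitters' processing notes name CASAVA 1.8.2, featureCounts, the build mm10, edgeR 3.8.2 and limma 3.22.0, without giving their roles here. No aligner or strand setting is given in the sources used here. Of the entries, 25275 took a symbol from the RefSeq table of GRCm38.p6, which also gave coordinates and sequences, and 1904 did not.

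The 6 libraries were fitted with edgeR 4.0.16 under R 4.3.3: filterByExpr, TMM scaling and the quasi-likelihood test with clone and group as terms, adjusted by Benjamini-Hochberg over all tested genes at 0.05. On simulated counts with known changes, over 5 draws, the fit recovered 7% of 2-fold and 72% of 4-fold changes. Of 83.8 calls per draw on average, 4.4 were false. Each draw changed 100 genes by each fold, far fewer than the 3680 genes called here. The simulated spread was revised after a first version gave more false calls, while the fit was left as it was. The revised spread was drawn around the fitted trend, the form that the fit itself assumes. The share of false calls in the draws is therefore no check on that among the 3680 called genes. Each SE was derived from the fold change and its quasi-likelihood F, and log2 CPM uses a prior count of 2. Each clone is a cell line of its own, so clone number pairs the libraries: deviations from group means correlated at 0.308, 0.512 and 0.434 within clones 1, 2 and 4, and at -0.353 to 0.035 between clones. Alternatives used limma 3.58.1 (voom) and DESeq2 1.42.0, other scalings, filters and samples.

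Genes were compared with 102 lists of symbols or symbol patterns. Named genes were Spi1 and Trp53, the 20 largest rises and falls outside the neutrophil list (mean log2 CPM 3 or more, groups apart), up to 4 members of smallest p per list and direction, the 8 widest and 8 narrowest over clones (mean log2 CPM 5 or more), members of runs of neighbours, and marker levels. The libraries, lists and rules were chosen with earlier results of these data known, and 4 further lists and the look at chromosome 3 came after the values were seen. Counts have no molecular identifiers, so counting intervals and floors cover counting error only. A few genes and a list that these rules would name are not reported here.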

Additional observations from a re-analysis of the deposited data

How the results depend on the processing

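Against 1942 higher and 1738 lower genes, the fit without the replicate block, which drops the pairing by clone, called 1168 and 858. Scaling by library size alone called 719 lower, and a test against a fold of 1.5 (glmTreat) called 668 higher and 515 lower. Leaving out a clone gave 520 to 1789 higher and 390 to 1546 lower, lowest without clone 4; with 2 clones left the fit has fewer residual degrees of freedom. Other scaling, filters, DESeq2, voom, all 9 libraries and leaving out mitochondrial and symbol-less entries stayed within 1.5 times. No called gene changed direction under any of the 13 alternatives, and Spi1 was called in each. Of 148 named genes, 34 lost their call without clone 4, 26 under glmTreat and 11 without the block. Ly6c2, which was not called, went from 0.30 to -0.20 without clone 2 and to 0.91 without clone 1, where it was called, on the log2 scale. The chromosome 3 difference from other chromosomes, -0.308, ran from -0.336 to -0.289 under the alternatives. Totals of 7408118 to 9803258 counts limit genes of a few counts, such as Cybb or the X-linked hairpins, where an absent call is not an absent change.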
